A study of Mus musculus with 86 samples.

Results

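Of 24063 genes in the expression tables, 10 were followed across 26 RNA-seq libraries: Fos, Fosb and Fosl2 of the Fos family, Jun, Junb and Jund of the Jun family, Atf3, and Egr1, Egr2 and Egr3. They were taken by name as immediate early transcription factors, with the row of greatest listed length for each symbol, and all 10 were present in all 4 deposited expression tables. The study asked how enhancers and gene expression differ between macrophages of different tissues in mice. Microglia, the macrophages of the brain, and resident macrophages of the peritoneum, large (LPM) and small (SPM), were stained and sorted directly before RNA was made. Bone marrow-derived macrophages (BMDM) had been grown on dishes in medium with M-CSF, the main macrophage growth factor, and thioglycolate-elicited macrophages (TGEM) came from the peritoneum. The labels give no treatment for these 5 populations and no age for the animals.

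For C57BL6/J mice, each of the 5 populations had 1 library in a table of polyA RNA and 1 in a table of replicates. The replicate libraries of microglia, LPM and SPM are labelled as depleted of ribosomal RNA, while those of BMDM and TGEM carry no such label. The kind of library and the replicate therefore cannot be told apart. Within the replicate table, the kind of library may also differ between microglia, LPM or SPM and BMDM or TGEM. A term for the table does not remove such a difference. Another table held 4 libraries of NOD/ShiLtJ and SPRET/EiJ mice, 1 of microglia and 1 of LPM per strain. The culture table held 1 further sorted C57BL6/J microglia library and 11 cultures, all kept for 7 days. Microglia were cultured with 4 ng/ml of IL-34, M-CSF or GM-CSF. The library titled GM-CSF has M-CSF in its treatment field, and the title is followed here. LPM were cultured with 4 ng/ml of IL-34 or M-CSF, each combined with 2 µM all-trans retinoic acid (ATRA) or its solvent DMSO, or with 1 ng/ml TGFB1 or the vehicle of TGFB1. Both IL-34 and M-CSF act through the receptor CSF1R, so every culture except the one with GM-CSF had a CSF1R ligand. Values are reads per 10000000 mapped reads, called reads below. The main tests take differences within a table, and values set side by side across tables are descriptions only. Libraries had 2886220 to 27003104 mapped reads.

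Immediate early genes are switched on within minutes of a stimulus from signalling proteins that are already in the cell, without new protein synthesis. Fos and Jun family proteins pair through leucine zippers to form AP-1, which binds a short palindromic site, and Atf3 is a related zipper protein that can repress as well as activate. Egr1, Egr2 and Egr3 are zinc finger factors that bind a GC-rich site. In macrophages these genes are known to respond to growth factors, adhesion, bacterial products and handling of the tissue.

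The labelled cell types were checked first, as ranges over tables that may have been counted differently. The summed level of 6 microglia markers was 63570 to 123500 reads in the 3 sorted C57BL6/J microglia libraries and 1817 to 14090 in the 2 sorted LPM libraries, and that of 6 LPM markers was 2017 to 2568 and 34930 to 41250. The summed level of 9 markers of neurons, astrocytes and oligodendrocytes was 695.5 to 2815 reads in these microglia and 743.8 to 816.6 in LPM, and that of 3 neutrophil markers was 76.5 to 290.3 and 8.70 to 21.4. Microglia of NOD/ShiLtJ and SPRET/EiJ had 94820 to 116200 reads of the microglia markers. In these bulk samples, fewer expressing cells and less RNA per cell cannot be told apart.

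Start regions of 3 members with a motif match before the start and of Junb, the gene with the highest level per length in most libraries, are shown because 9 of the members were called higher together in microglia. Sequences are from RefSeq on build GRCm38.p6, 250 bases before to 50 after the annotated start, and 8 of the 10 members had an entry (12 entries, of which 5 for Egr2). Egr1 and Egr3 had no entry and were not searched, and sites outside these 300 bases were not searched in any member. Motif matches are in capitals.
Fos (chr12:85473640-85473939, plus strand): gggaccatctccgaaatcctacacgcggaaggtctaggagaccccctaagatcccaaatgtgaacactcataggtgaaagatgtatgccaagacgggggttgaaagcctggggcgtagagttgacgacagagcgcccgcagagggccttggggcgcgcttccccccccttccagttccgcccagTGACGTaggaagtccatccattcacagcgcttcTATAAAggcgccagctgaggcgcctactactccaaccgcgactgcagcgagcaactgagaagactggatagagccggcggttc
Fosb (chr7:19309996-19310295, minus strand): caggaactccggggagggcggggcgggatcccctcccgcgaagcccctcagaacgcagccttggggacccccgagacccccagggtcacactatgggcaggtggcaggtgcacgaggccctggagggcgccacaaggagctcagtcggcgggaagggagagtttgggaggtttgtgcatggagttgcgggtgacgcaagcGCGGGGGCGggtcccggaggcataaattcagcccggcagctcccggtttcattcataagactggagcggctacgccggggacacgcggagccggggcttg
Junb (chr8:84978699-84978998, minus strand): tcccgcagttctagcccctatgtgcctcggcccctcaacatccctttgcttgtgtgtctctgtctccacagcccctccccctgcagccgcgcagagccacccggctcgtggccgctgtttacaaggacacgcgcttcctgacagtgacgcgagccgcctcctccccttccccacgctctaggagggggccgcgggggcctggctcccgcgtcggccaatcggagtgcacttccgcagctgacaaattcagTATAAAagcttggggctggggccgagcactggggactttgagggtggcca
Egr2 (chr10:67537619-67537918, plus strand): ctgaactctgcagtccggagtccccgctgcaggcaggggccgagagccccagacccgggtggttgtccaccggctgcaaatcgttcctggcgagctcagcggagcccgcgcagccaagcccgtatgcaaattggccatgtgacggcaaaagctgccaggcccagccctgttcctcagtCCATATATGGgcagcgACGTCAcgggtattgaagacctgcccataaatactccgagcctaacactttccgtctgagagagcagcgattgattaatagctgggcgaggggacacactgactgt
Both strands were searched. The full cAMP response element TGACGTCA (1.79% of 32851 mouse start regions) and the AP-1 site TGANTCA (7.81%) were found in none of the 12 entries, and neither were the ETS site CCGGAAGT (3.89%) and the PU.1 site GAGGAAGT (3.20%). The half-site TGACGT, which is also part of the full element, occurs in 7.51% of start regions and was found in Fos at -66, in Egr2 at -56 in the entry shown and in Atf3 at -8. The CArG box, the site of serum response factor, occurs in 1.63%. Among the 8 members with an entry it was found in Egr2 only, at -72 in the entry shown. The Egr site, GCGTGGGCG or GCGGGGGCG, occurs in 3.47% and was found at -50 in Fosb and -79 in Fosl2. TATAAA occurs in 13.6% and was found at -33 in Fos and at the annotated start of Junb. Positions count from the annotated start to the match's first base. The PU.1 site and the half-site were added after the other motifs had been searched, and a match is a description of the letters, not a site shown to be bound.

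Freshly sorted C57BL6/J microglia had the highest level of 8 of the 10 members in the polyA table and of 7 in the replicate table. The share of all genes that were highest in microglia was not counted. Fos, the founding AP-1 gene, stood at 23039 and 6483 reads in microglia (polyA and replicate table), 453 and 209 in LPM, 437 and 289 in SPM, 3271 and 1252 in BMDM, and 539 and 256 in TGEM. Microglia were highest in both tables, and BMDM came second, also above the other 3 populations in both. Fosb, a Fos relative with a strong activation domain, stood at 24127 and 3481 reads in microglia, and the other 8 libraries lay between 2.483 and 77.5.

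Fosl2, also named Fra-2, went the other way. It had 397 and 240 reads in microglia, 971 and 785 in LPM, 1053 and 692 in SPM, 839 and 520 in BMDM, and 661 and 742 in TGEM. Microglia were the lowest population in both tables.

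Jun, the main partner of Fos in AP-1, had 29488 and 7526 reads in microglia, 301 and 113 in LPM, 298 and 181 in SPM, 1150 and 1013 in BMDM, and 2472 and 2637 in TGEM. Both peritoneal resident populations lay below BMDM and TGEM in both tables. Junb, a weaker activator of the Jun family, had 17917 and 5651 reads in microglia, while the other 8 libraries lay between 827 and 3002. Jund, the Jun gene that quiescent cells also express, had 7813 and 1717 reads in microglia, 443 and 226 in LPM, 1043 and 407 in SPM, 1757 and 1319 in BMDM, and 2515 and 1962 in TGEM. In the replicate table TGEM and not microglia had the highest Jund level.

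Atf3, which stress and inflammatory signals induce, had 19664 and 13249 reads in microglia, 272 and 200 in LPM, 277 and 268 in SPM, 4295 and 2563 in BMDM, and 5267 and 5435 in TGEM. Its order was microglia, TGEM, BMDM and then both resident peritoneal populations, in both tables.

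Egr1 had 28977 and 4024 reads in microglia, and the other 8 libraries lay between 71.1 and 239. Egr2, which takes part in macrophage differentiation and is a marker of some alternatively activated macrophages, had 939 and 373 reads in microglia, 9.35 and 10.2 in LPM, 27.7 and 21.7 in SPM, 533 and 493 in BMDM, and 1339 and 1254 in TGEM. TGEM were highest for Egr2 in both tables. Egr3 had 716 and 370 reads in microglia and between 4.604 and 102.5 in the other 8 libraries.

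**Figure D1:**
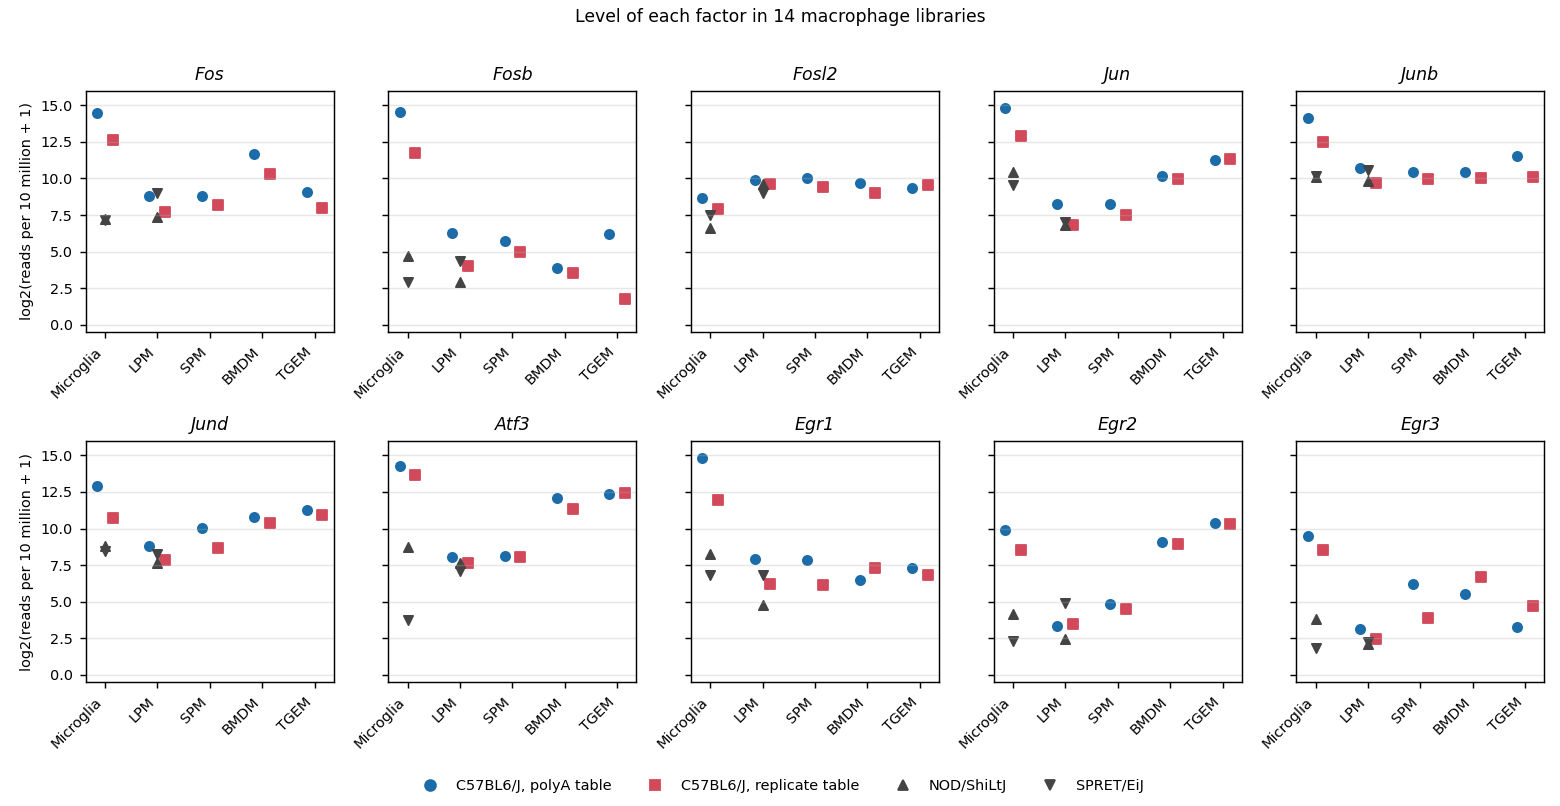
Level of each of the 10 factors, as log2(reads per 10000000 mapped reads + 1), in 10 C57BL6/J libraries (1 point per library, polyA table and replicate table) and in 4 libraries of NOD/ShiLtJ and SPRET/EiJ (1 of microglia and 1 of LPM per strain). C57BL6/J microglia are the highest population in both tables for 7 factors, and for Fosl2 they are the lowest.

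Of 40 comparisons of microglia with another population, 10 members by 4 populations, 38 had the same direction in both tables. The exceptions were Jund against TGEM and Egr2 against BMDM, where microglia were higher in the polyA table and lower in the replicate table. The 4 comparisons of a member share its microglia values, so the 40 are not independent, and the share over all genes was not counted. The microglia libraries also differed in level. The polyA library stood above the replicate library for all 10 members, from 1.48 times for Atf3 to 7.20 times for Egr1. The 2 are different libraries of different kinds in different tables, and these cannot be told apart as sources of the difference.

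In limma's test on log2(value + 1), with terms for population and table and adjustment over 19313 genes, a gene was called at an adjusted p under 0.05 and an absolute log2 difference of at least 1. Microglia against LPM had 9 members called higher, where 7.54% of all genes were, and Fosl2 called lower, where 10.8% were. The log2 differences (± SE, 2 libraries per population) were 5.31 ± 0.35 for Fos, 8.00 ± 0.84 for Fosb, 6.33 ± 0.48 for Jun, 3.10 ± 0.39 for Junb, 3.53 ± 0.45 for Jund, 6.11 ± 0.33 for Atf3, 6.34 ± 0.70 for Egr1, 5.78 ± 0.41 for Egr2 and 6.18 ± 0.86 for Egr3. Their adjusted p-values ran from 6.93e-06 (Atf3) to 0.000774 (Egr3). Fosl2 differed by -1.50 ± 0.32 (limma adjusted p = 0.00956), and this call was lost without either LPM library or without the microglia replicate library. The median over the 10 members was 5.94 against -0.11 over all genes tested.

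Against SPM, 9 members were called higher in microglia (7.36% of all genes) and Fosl2 lower (13.3%). Against BMDM, 7 members were called higher (12% of all genes) and Fosl2 lower (18.4%). Against TGEM, 7 were higher (17.4%) and Fosl2 lower (20.1%). Jund and Egr2 were the members not called in the last 2 comparisons. The kind of library may differ between the populations of these 2 comparisons. For Egr2 the log2 difference was 0.21 ± 0.41 against BMDM (limma adjusted p = 0.764) and -1.13 ± 0.41 against TGEM (0.0554). For Jund it was 1.27 ± 0.45 against BMDM (0.0575) and 0.72 ± 0.45 against TGEM (0.235). The Egr3 calls against SPM and BMDM and each of the Fosl2 calls were lost when certain single libraries were left out, and edgeR did not call Fosl2 against BMDM. It did call Jund higher against BMDM and Egr2 lower against TGEM.

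Between LPM and SPM no member was called by limma or edgeR, which called 0.0259% and 0.518% of all genes. An unadjusted p under 0.05 was found for 3 of 10 members, against 4.11% of all genes, and each of the 3 had lower values in LPM in both tables. The log2 differences were -1.04 ± 0.45 for Jund, -1.24 ± 0.41 for Egr2 and -2.21 ± 0.86 for Egr3. The polyA SPM library had the fewest mapped reads, 2886220, and its Egr2 and Egr3 values rest on 8 and 21 unscaled reads. The summed level of 4 B cell markers was 2797 to 5315 reads in SPM and 369.9 to 539.7 in LPM, and the part of B cells in these differences was not tested. LPM had 6 members called lower than BMDM (8.33% of all genes): Fos, Jun, Jund, Atf3, Egr2 and Egr3. Without the replicate library of BMDM or of LPM, 3 of these calls remained. LPM had 4 called lower than TGEM (12.6%): Jun, Jund, Atf3 and Egr2. SPM had 4 called lower than BMDM (6.64%): Fos, Jun, Atf3 and Egr2. SPM had 4 called lower than TGEM (10.3%): Jun, Jund, Atf3 and Egr2. These comparisons share libraries with each other and are not independent, and the kind of library may differ between resident cells and BMDM or TGEM. Egr2 had the largest of these differences, -6.91 ± 0.41 on the log2 scale in LPM against TGEM (limma adjusted p = 1.54e-05). BMDM against TGEM had Fos called higher (3.5% of all genes), by 2.44 ± 0.35 (limma adjusted p = 0.00571), and without either BMDM library it was not called.

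In NOD/ShiLtJ and SPRET/EiJ, the microglia values of 9 members lay closer to those of LPM than in C57BL6/J. Fos stood at 146 reads in NOD/ShiLtJ microglia and 144 in SPRET/EiJ microglia, against 166 and 503 in LPM of the same strains. Atf3 stood at 418 and 12.5 reads in microglia and 202 and 136 in LPM. Egr1 stood at 301 and 112 reads in microglia and 27.1 and 114 in LPM. Jun was higher in microglia in both strains, with 1364 and 754 reads against 114 and 127. Fosl2 was lower in microglia in both, with 98.3 and 179 reads against 797 and 522. Junb was close in both cells, with 1091 and 1164 reads in microglia and 920 and 1551 in LPM, and Jund had 457 and 360 against 197 and 305.

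The remaining 3 members were low in both strains. Fosb had 24.9 and 6.596 reads in microglia and 6.78 and 19.7 in LPM. Egr2 had 16.8 and 3.96 against 4.52 and 28.6, and Egr3 had 13.5 and 2.64 against 3.39 and 3.81. One read was worth 0.3703 to 3.465 of these units across the libraries, so the lowest of these values rest on a few reads.

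Within NOD/ShiLtJ, 8 of 10 members had higher values in microglia than in LPM, with a median log2 difference of 1.45, and within SPRET/EiJ 2 of 10 had (Jun at 2.56 and Jund at 0.24), with a median of -0.93. Within the C57BL6/J pairs, 9 of 10 were higher in each table, with medians of 6.24 and 5.41. Over all genes, the medians were 0.12 in NOD/ShiLtJ and 0.07 in SPRET/EiJ. A log2 difference of at least 1 was found for 9 members in each C57BL6/J pair, against 24.8% (polyA) and 18% (replicate table) of all genes. It was found for 7 members in NOD/ShiLtJ and 1 in SPRET/EiJ, against 20.4% of all genes in each.

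**Figure D2:**
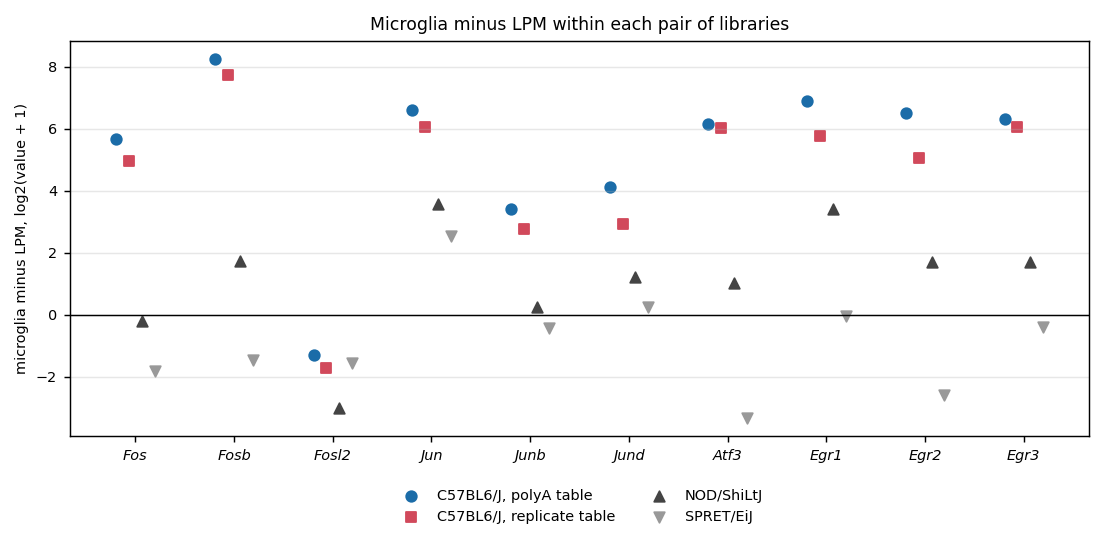
Microglia minus LPM for each factor, as the difference of log2(reads per 10000000 mapped reads + 1), within each of 4 pairs of libraries (1 point per pair). Points of both C57BL6/J pairs lie above those of the other strains for every factor except Fosl2, and Jun is above 0 in all 4 pairs.

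Across the 3 strains, with strain as a block and the replicate table for C57BL6/J, limma called Jun higher in microglia (4.06 ± 0.61, adjusted p = 0.00645, higher in 3 of 3 strains), where 7.09% of all genes were called higher. It called Fosl2 lower (-2.08 ± 0.33, adjusted p = 0.00816, lower in 3 of 3 strains), where 8.95% were called lower. When either SPRET/EiJ library was left out, only the C57BL6/J and NOD/ShiLtJ pairs informed the difference. The count then went from 2 members to 10, with 9 higher and 1 lower, and the share of all genes is not given. Within NOD/ShiLtJ, Fos was -0.18 and Junb 0.25, so these calls do not mean that each member differed in both strains. The difference between strains was tested as the microglia minus LPM difference in C57BL6/J minus that in the other strains, over 14 libraries. All 10 values were above 0, with a median of 5.08 against -0.20 over all genes tested. Of these members limma called Fos (6.30 ± 0.58, adjusted p = 0.0176), where 0.0468% of all genes were called higher. Atf3 (7.25 ± 1.07, limma adjusted p = 0.0546) and Junb (3.18 ± 0.54, 0.0757) did not pass. In all, 9 members had an unadjusted p under 0.05, against 8.26% of all genes, and edgeR called 8 higher, against 0.432%. The limma count ran from 0 to 4 when single libraries were left out. It was 0 without any 1 of 7 libraries: either C57BL6/J microglia library, either C57BL6/J LPM library, the polyA SPM library or either SPRET/EiJ library. Each strain other than C57BL6/J had 1 library per population, in a table of its own, so strain and table cannot be told apart here. SPRET/EiJ against NOD/ShiLtJ had no member called by limma or edgeR (0.31% and 0.537% of all genes were called), and 1 member, Atf3, had an unadjusted p under 0.05, where 12.3% of all genes had.

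In culture, microglia had far less RNA of 4 members than the sorted microglia in the same table. The sorted library had 5705 reads of Fos, and the cultures with IL-34, M-CSF and GM-CSF had 160, 87.0 and 118. Jun went from 7676 to 515, 534 and 488 reads in the same order. Egr1 went from 3342 to 62.8, 68.0 and 46.0. Fosb went from 1667 to 0 in all 3 cultures, which is at least 325.9-fold lower with a floor of 3 reads per library. The test has 1 sorted library, which is assumed to vary like the cultures, and these had a different ligand each. On that assumption limma called these 4 lower, where 1.23% of all genes were, with log2 differences of -5.58 ± 0.48 for Fos, -3.91 ± 0.40 for Jun and -5.82 ± 0.49 for Egr1 and adjusted p-values between 0.000953 and 0.00272 for the 4. The median over all genes tested was 0.48. Markers of cell identity moved as well: the summed level of the 6 microglia markers was 63570 reads in the sorted library and 12150 to 24800 in the 3 cultures, and that of 5 markers of thioglycolate-elicited and bone marrow-derived macrophages was 20.1 and 67500 to 185400. Of the latter, 1 was at 0 in the sorted library and none in the cultures. Their part in the members' levels was not tested.

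The other 6 members did not pass that test. Atf3 had 2265 reads in the sorted library and 1626, 3539 and 1632 in culture with IL-34, M-CSF and GM-CSF, a log2 difference of -0.10 ± 0.58 (limma adjusted p = 0.919). Junb had 5223 reads against 436, 1702 and 377, and Jund had 1271 against 225, 621 and 298. The culture with M-CSF was the highest of the 3 for Junb, Jund and Atf3. Egr2 had 296 reads against 120, 138 and 375, and Fosl2 had 54.8 against 115, 206 and 157. Egr3 had 221 reads in the sorted library, 19.8 in the culture with M-CSF and 0 in the other 2.

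Cultured microglia were also compared with cultured LPM at matched ligands, over 6 libraries. Atf3 was called higher in microglia (2.26 ± 0.30, limma adjusted p = 0.0029), with 1626 and 3539 reads against 440 to 593 in the 4 LPM cultures with a solvent or vehicle. Jun (1.30 ± 0.24, 0.0115) and Jund (1.10 ± 0.29, 0.0369) were also called higher, where 9.3% of all genes were, and Fosl2 lower (-1.04 ± 0.29, 0.045), where 5.01% were. The Jund and Fosl2 calls were lost without any 1 of the 4 LPM libraries, and the Jun call without the IL-34 microglia library. In these 6 libraries the markers of elicited and bone marrow-derived macrophages summed to 67500 to 125300 reads in microglia and 16750 to 37850 in LPM, and their part in the result was not tested.

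In cultured LPM, Fos was called lower with each additive and Egr2 with TGFB1. Fos had 154 reads with IL-34 and DMSO and 86.5 with IL-34 and ATRA, and 392 and 94.4 with M-CSF. It had 132 and 57 reads with the TGFB1 vehicle and TGFB1 under IL-34, and 373 and 107.5 under M-CSF. Fos was thus lower with each additive under each ligand. limma, with terms for additive and ligand over 8 libraries, called Fos lower with ATRA (-1.44 ± 0.34, adjusted p = 0.00271), where 0.35% of all genes were called lower. With TGFB1 it called Fos (-1.49 ± 0.34, adjusted p = 0.000478) and Egr2 (-1.03 ± 0.34, 0.0355), where 3.53% were called lower. Egr2 went from 115 to 90.8 reads under IL-34 and from 191 to 56.9 under M-CSF. With TGFB1, 5 of 10 members had an unadjusted p under 0.05, where 14.8% of all genes had. The 3 not called were Jun (-0.94 ± 0.34, limma adjusted p = 0.0659), Jund (-0.95 ± 0.34, 0.0691) and Fosb (1.80 ± 0.70, 0.117), each with the same sign under both ligands. The Fosb value rests on a few reads.

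Egr1 differed with the ligand. It had 79.6, 84.0, 71.3 and 54.1 reads with IL-34 (DMSO, ATRA, vehicle and TGFB1) and 206, 309, 216 and 110 with M-CSF. limma called Egr1 lower with IL-34 (-1.46 ± 0.25, adjusted p = 4.41e-06), where 0.817% of all genes were called lower. Fos was -0.97 ± 0.24 (limma adjusted p = 0.0105), short of the log2 limit of 1. These p-values rest on a variance shared by genes of like level, since limma found no further spread between genes, and each of the Fos, Egr2 and Egr1 calls was lost without certain single libraries. Fosb and Egr3 were at 0 to 2.90 reads in all 8 cultures.

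**Figure D3:**
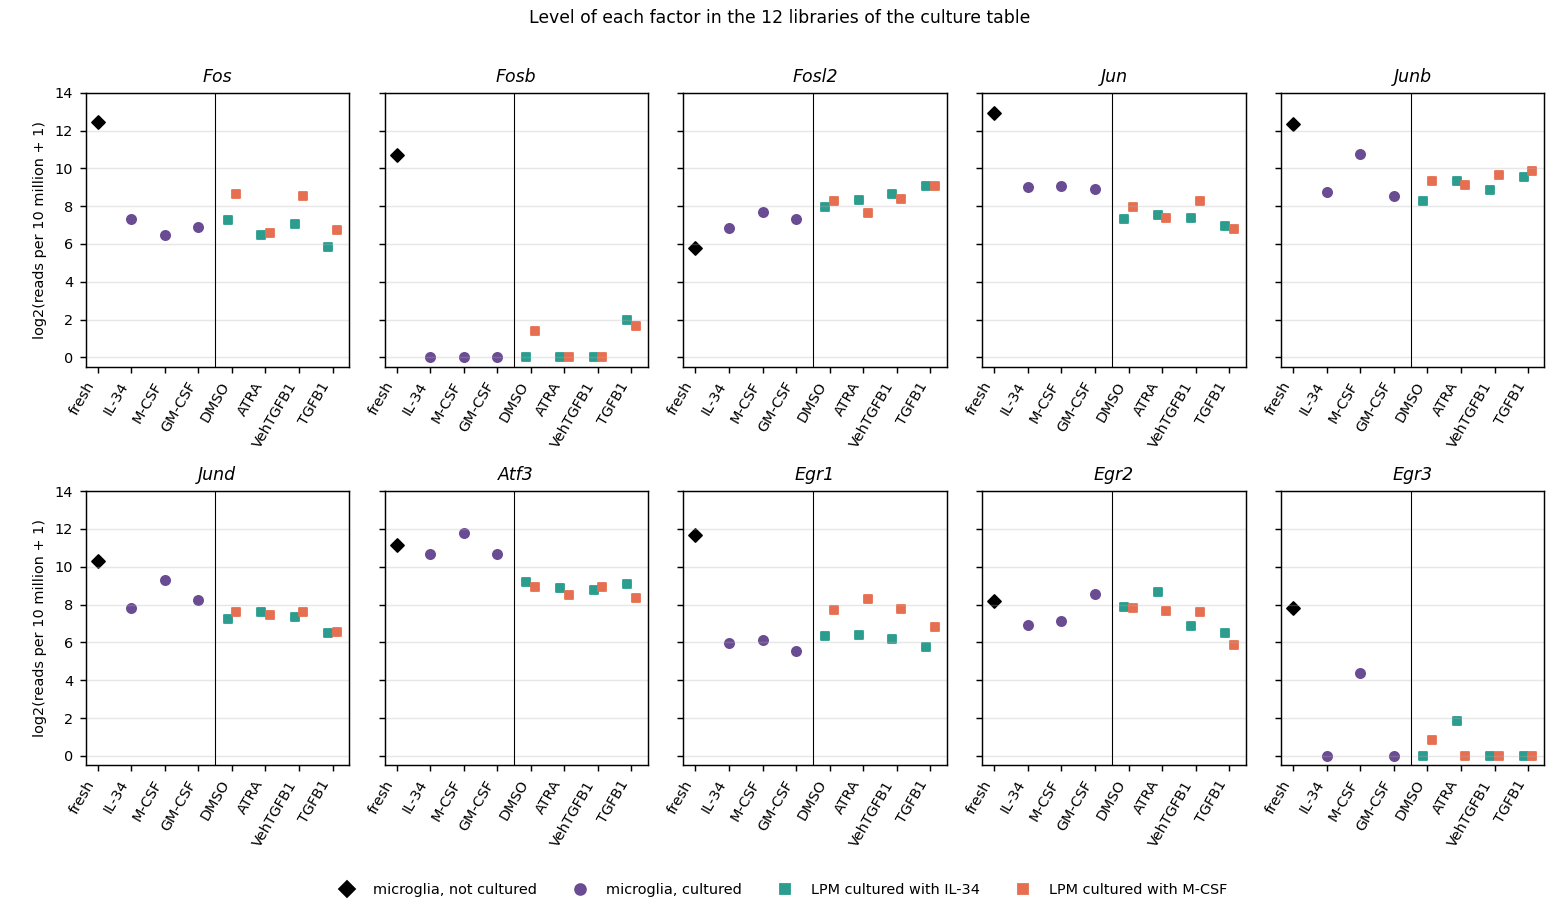
Level of each factor, as log2(reads per 10000000 mapped reads + 1), in the 12 libraries of the culture table (1 point per library). Sorted microglia stand above all 11 cultures for Fos, Fosb, Jun, Junb, Jund, Egr1 and Egr3, and not for Fosl2, Atf3 and Egr2.

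Levels were compared between members only per kilobase of listed length. Junb had the highest level per kilobase in 20 of 26 libraries, Atf3 in 4, and Fos and Jun in 1 each. Junb was among the first 3 in all 26 libraries, and Egr3 was among the last 3 in all 26. Fosb was among the last 3 in 23, the exceptions being the 3 sorted C57BL6/J microglia libraries, where it ranked from 5 to 7. Fosl2 ranked 10 in these 3 libraries and higher in every other. Atf3 led in all 3 microglia cultures and in LPM with IL-34 and DMSO. These 4 libraries are all in the culture table, where the listed length of Atf3 is 1970 bases against 13036 in the other tables. Its rank is therefore not comparable between the culture table and the others. Junb had 171 to 9743 reads per kilobase, with a median of 551, and Egr3 0 to 139, with a median of 0.814. Listed lengths include introns in 3 of the tables. Per kilobase of exons Junb led in 16 libraries and Atf3 in 9, among them libraries outside the culture table.

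**Figure D4:**
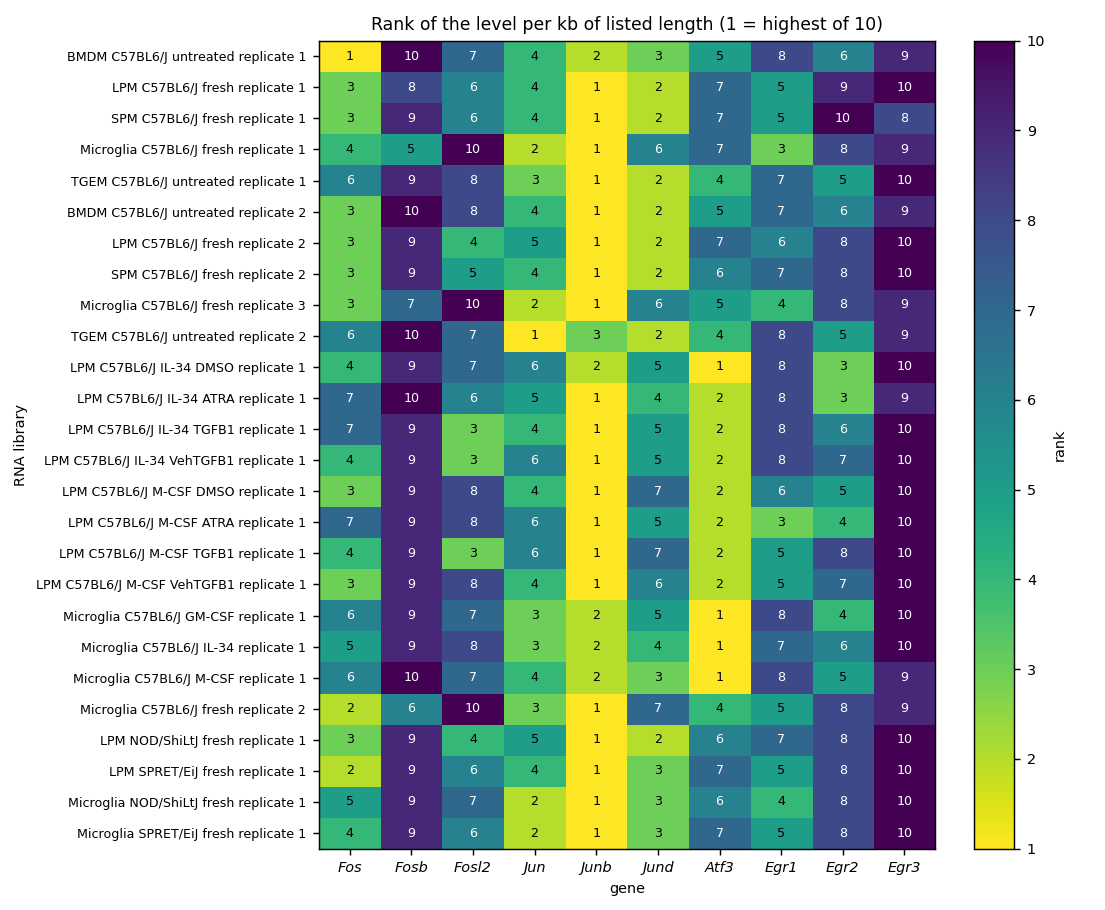
Rank of each factor by level per kilobase of listed length within each of 26 RNA libraries (1 is the highest of 10), with members at 0 in the same library placed in arbitrary order. Junb ranks 1 to 3 throughout, and Fosb ranks 5 to 7 in the 3 sorted C57BL6/J microglia libraries and 8 to 10 elsewhere.

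Profiles were compared over the 14 libraries of the polyA, replicate and strain tables, with log values centred within each table. Pearson's r of a member with the mean profile of the other 9 ran from 0.615 for Egr2 to 0.902 for Junb in 9 members, and Fosl2 was at -0.64. Likeness between single members was uneven. Among the 36 pairs without Fosl2, r had a median of 0.73 and ran from 0.203 for Fosb with Egr2 to 0.935 for Fosb with Junb. Egr2 was at 0.357 with Egr1 and 0.492 with Egr3, and Fosb at 0.482 with Atf3. With the mean of all 10 members, 13104 other genes reaching 50 reads had a median r of -0.10, and 3.53% of them were at or above 0.711, the lowest value of the 9 members on that measure (Egr2). Each member is part of that mean, which raises its own r, so this share is not a like comparison. The 95th percentile of the other genes was 0.671, above the 0.615 of Egr2 with the mean of the other 9. Among the 8 other genes with the highest r were Maff (0.965), Hspe1 (0.952), Snrpc (0.941), Pnrc1 (0.926), Hsp90aa1 (0.919), Rnf19b (0.918) and Hspa1l (0.916). Maff is a small Maf zipper protein, and Hspe1, Hsp90aa1 and Hspa1l are heat shock genes. Maff had 909 and 367 reads in C57BL6/J microglia (polyA and replicate table), 11.4 in NOD/ShiLtJ microglia and 10.6 in SPRET/EiJ microglia. The points share tables and strains, so r is a description of likeness over these 14 libraries.

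Other genes of the pathway were counted from lists, in microglia against LPM of C57BL6/J. Over all genes 7.54% were called higher and 10.8% lower. Of 29 other immediate early genes, 17 were called higher and 3 lower, with a median log2 difference of 2.46 against -0.11 over all genes. Among them were Rhob, a small GTPase (5.62 ± 0.53), Ppp1r15a, which restarts translation after stress (4.60 ± 0.40), Ier5 (4.55 ± 0.32) and the kinase Sgk1 (4.30 ± 0.33). Of 21 other AP-1 and related zipper genes, 7 were higher and 2 lower, with Creb5 (5.64 ± 0.46), Maff (5.48 ± 0.52) and Batf3 (2.79 ± 0.58) higher and Batf2 (-2.58 ± 0.68) lower. Of 16 upstream regulators and Egr partners, 1 was higher and 2 lower, shares near those of all genes. These were Elk3 (1.80 ± 0.34) higher, and Elk1 (-1.90 ± 0.42) and the Egr co-repressor Nab1 (-1.52 ± 0.29) lower.

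Of 15 cytokine and chemokine pathway genes known to have AP-1 or Egr sites, 9 were called higher in microglia (7.54% of all genes) and 2 lower (10.8%). Ccl4 (8.43 ± 0.75) and Ccl3 (6.59 ± 0.69), chemokines for monocytes and T cells, were higher, and Cxcl1 (-5.45 ± 0.75) and Cxcl2 (-5.44 ± 0.94), chemokines for neutrophils, were lower. With TGFB1 in cultured LPM, 9 of 14 tested genes of this list were called lower, where 3.53% of all genes were, and none higher, where 3.17% were.

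Heat shock genes were called in the same comparisons. Of 10, 9 were called higher in C57BL6/J microglia than in LPM (7.54% of all genes) and none lower (10.8%), with a median log2 difference of 4.01. Hspa1a stood at 9620 and 4332 reads in microglia (polyA and replicate table) and 189 and 31.7 in LPM. It stood at 172 and 148 in microglia of NOD/ShiLtJ and SPRET/EiJ, which are in another table. In cultured against sorted microglia, 6 of 10 were called lower (1.23% of all genes) and none higher (8.09%), and Hspa1a went from 3646 reads to between 0 and 1.705. Of the 29 other immediate early genes, 11 were called lower and 1 higher there. The part of heat shock or of handling in the members' levels was not tested.

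Chromatin near the members was read from the deposited lists of regions with the enhancer and promoter marks H3K27Ac and H3K4me2 and of peaks of PU.1, the factor that defines the macrophage lineage. For each mark, 9 lists of sorted, BMDM and TGEM cells were used, with 1 library each and hence no test, on build mm10. The list titled PU.1 in BMDM has H3K4me2 in its antibody field, and the title is followed. Of 90 pairs of member and list, 72 had an H3K27Ac region within 1 kb of the start (33.9% of such pairs over all genes), 82 an H3K4me2 region (50.1%) and 62 a PU.1 peak (28.8%).

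The H3K27Ac list of C57BL6/J microglia had no region within 1 kb of the starts of Fos, Fosb, Egr2 and Egr3. The nearest regions lay 14870, 33171, 105796 and 14889 bases away. In the LPM list of the same strain, Egr3 was the only member without a region within 1 kb. The H3K4me2 list of the same microglia had a region within 1 kb of all 10 starts. The microglia H3K27Ac list was the shorter, with 15091 regions against 24422 in LPM, and covered 26.2% of all starts against 38.5%. ChIP samples of sorted cells were fixed before sorting, whereas RNA samples were sorted unfixed, so the 2 kinds of sample were handled differently.

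PU.1 peaks lay within 1 kb of the starts of Fos, Junb and Egr2 in 9 of 9 lists, and of Jun in 3 of 9. Within 100 kb, Atf3 had 15 to 39 PU.1 peaks per list and Fos 11 to 39, while Jun had 4 to 17 and the mean over all starts was 3.12 to 12.3. Egr3 had an H3K27Ac region within 1 kb in 1 of 9 lists, that of SPM, and 3 to 12 within 100 kb. For Egr2 the microglia lists of the 3 strains had 0 to 2 H3K27Ac regions within 100 kb and the other lists 4 to 13. For Fos they had 3 to 6 against 9 to 25, and for Fosl2 0 to 2 against 4 to 6. The ranges met or overlapped for every other member, and the share of all starts with separate ranges was not counted. The lists differ in length, and the mean over all gene starts was 2.57 to 3.24 regions in the microglia lists and 3.13 to 5.98 in the others, a difference in the same direction. Starts of other genes lie within 100 kb of most members, from 1 for Fos, Jun and Egr2 to 18 for Junb, and 0 for Fosl2. The lists of cultured LPM had an entry within 1 kb of 0 to 0.158% of all starts and of no member, so they were not read at starts.

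**Figure D5:**
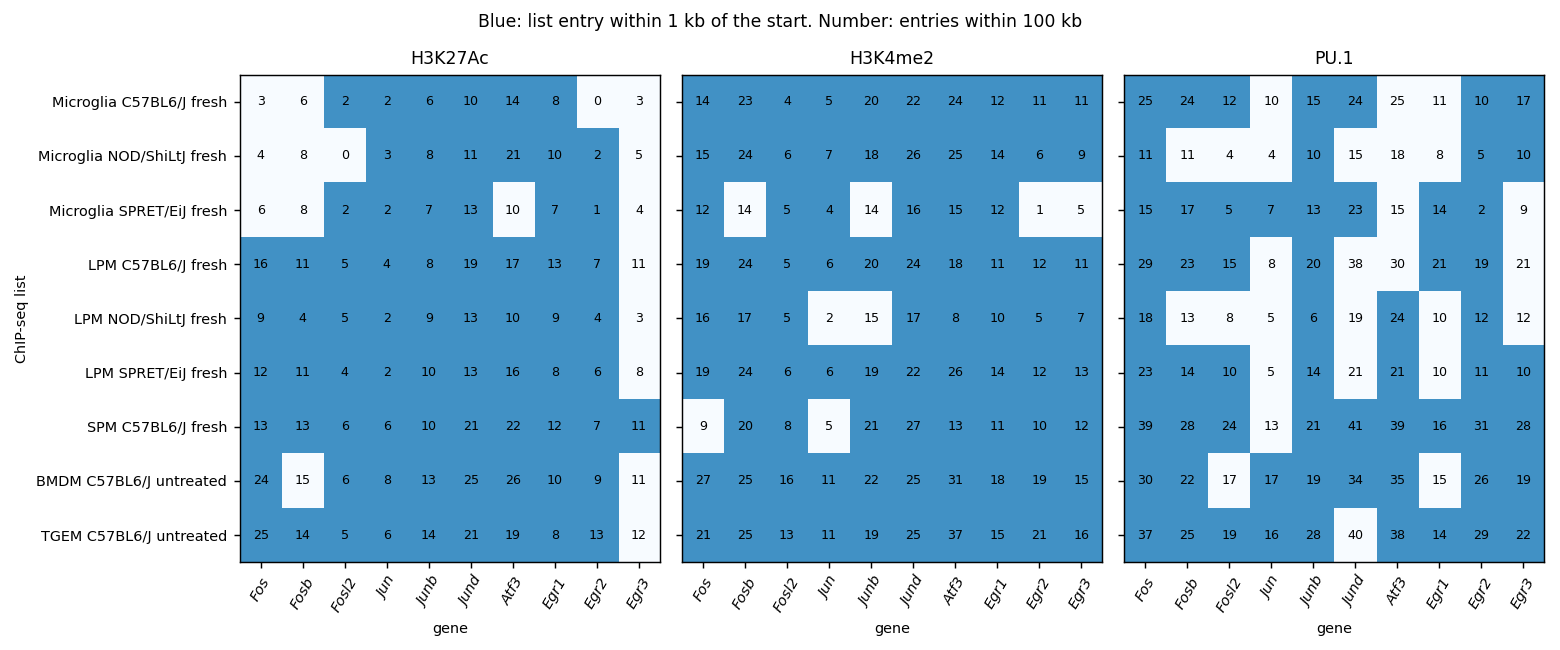
Entries of 9 lists for each mark near the annotated start of each factor: blue cells have an entry within 1 kb, and the number is the count within 100 kb. The C57BL6/J microglia row of H3K27Ac is white for Fos, Fosb, Egr2 and Egr3, and the same row of H3K4me2 is blue for all 10.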

How the data were processed

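RNA was measured in 26 libraries and 3 chromatin targets in 1 ChIP-seq library per condition. Per the file headers, the authors gave expression as reads per transcript scaled to 10000000 mapped reads, a signal. The listed lengths span introns in 3 tables and cover exons only in the culture table. Whether intron reads were counted is not given in the sources used here. Exons make up 15.1% of the span of Atf3, 27.4% of that of Fosl2 and 99.9% of that of Jun. Sorted C57BL6/J microglia had 13249 reads of Atf3 in the replicate table and 2265 in the culture table, and 7526 and 7676 of Jun. The part of intron reads in the values of the 3 tables was not tested. How strands were counted is not given in the sources used here, so overlapping and antisense genes may share reads. The authors' region and peak lists carry a deposited score per entry, used here only to rank entries within a list. STAR, Bowtie, HOMER and mm10 are named in the submitters' processing notes. Reads were recovered by dividing by the value of 1 read (whole within 0.1 for 100.0% of low values), so values are scaled reads, not the counts the design allowed for, and its fallback for scaled values was used.

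limma 3.58.1 (R 4.3.3) with a mean-variance trend was fitted to log2(value + 1) of genes reaching 1 in at least 1 library, with Benjamini-Hochberg adjustment over all genes tested in each of 18 contrasts. Folds on this scale understate changes of low genes. Genes on the X and Y chromosomes were left out of every fit that includes the NOD/ShiLtJ and SPRET/EiJ libraries. Shares of all genes called in those fits are over the remaining genes. edgeR 4.0.16 (quasi-likelihood, TMM) on recovered reads was an alternative. Scripts were tested on simulated data. After that test failed in the fit of cultured against sorted microglia, 859 genes with no residual spread were left out of that fit's prior, a choice made after seeing the data. The table was the block in the population fits, since each held 1 library per population. Separate animals or cultures are stated for no replicates, so p-values measure the spread between these samples, which may be technical. Libraries were compared over single-exon genes, narrowed to longer coding ones after a first look at all single-exon transcripts, where sampling alone gives a median chi-square of 0.455. The lowest were 0.871 for microglia replicates of different tables, never in the same fit, and 0.887 (M-CSF with DMSO or VehTGFB1) and 0.906 (TGFB1 with IL-34 or M-CSF) for pairs within the fit of cultured LPM, so none was counted as 1 sample. One column of the culture table was matched by elimination to the microglia sample labelled as untreated, called sorted here. The header of that column reads Microglia_Veh, which names a vehicle.

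All 10 members are named. Other genes named are the 8 most alike in profile, 1 of which is not reported here, and up to 4 per pathway list, by largest difference in microglia against LPM. Members, lists and directions counted were chosen with earlier results of these data known. The PU.1 list of TGFB1-treated LPM is identical to that of its vehicle and was counted once, which left 12 PU.1 lists. Planned counts at starts over 13 lists per mark were cut to the 9 lists with entries near starts, 90 pairs of member and list. Depth sets the value of 1 read, 0.3703 to 3.465, and counting error only.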

Additional observations from a re-analysis of the deposited data

Results flagged for a closer look

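For Fos, microglia minus LPM was 5.67 and 4.95 on the log2 scale in the C57BL6/J pairs (polyA and replicate table), -0.18 in NOD/ShiLtJ and -1.80 in SPRET/EiJ. The fitted difference of 6.30 passed limma's test. Strain and table cannot be told apart, and the call was lost without any 1 of 7 of the 14 libraries.

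In 6 other members the difference had opposite signs in NOD/ShiLtJ and SPRET/EiJ, with 1 library per strain and population, and this was not tested. Microglia minus LPM (log2, NOD/ShiLtJ then SPRET/EiJ) was 1.74 and -1.45 for Fosb, 0.25 and -0.41 for Junb, and 1.04 and -3.34 for Atf3. It was 3.42 and -0.035 for Egr1, 1.69 and -2.58 for Egr2, and 1.72 and -0.40 for Egr3. No minimum size was set, so values near 0 are among them.

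In cultured LPM, 7 differences had opposite signs with IL-34 and with M-CSF, which was not tested. ATRA minus DMSO (log2, IL-34 then M-CSF) was 0.39 and -0.63 for Fosl2, 0.23 and -0.58 for Jun, 1.05 and -0.20 for Junb, 0.37 and -0.17 for Jund, 0.78 and -0.15 for Egr2, and 1.82 and -0.86 for Egr3. The Egr3 values rest on a few reads. TGFB1 minus vehicle was 0.32 and -0.57 for Atf3.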

How the results depend on the processing

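For members called as reported, 394 of 410 values under other settings kept the call and 16 lost it, and with one library left out 575 of 644 kept it and 69 lost it. None of these changed sign. For members not called as reported, 23 of 610 values under other settings were called and 12 changed sign, and with one library left out 44 of 886 were called and 69 changed sign. With one library left out, 27 of 153 counts of members called fell by over 1.5 times or to 0, and 9 rose by as much. Under other settings 4 fell and 5 rose by as much, and the causes were not tested. BMDM against TGEM (1 called) had 2 with quantile normalization, 3 with edgeR and 0 without the table as a replicate block, the fit without pairing by table. The strain difference (1) had 3 with a pseudocount of 5 and 8 with edgeR. TGFB1 (2) had 1 with a pseudocount of 5 and 1 with quantile normalization. Cultured against sorted microglia (4) had 7 with quantile normalization, and cultured microglia against cultured LPM (4) had 2 with no filter on low values. A prior spread from all genes, added after seeing the data, called the same 4 members in cultured against sorted microglia.

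With one library left out, the counts ran from 9 to 10 for microglia against LPM, 8 to 10 against SPM, 6 to 9 against BMDM and 7 to 9 against TGEM. They ran from 3 to 6 for LPM against BMDM, 4 to 5 for LPM against TGEM, 3 to 5 for SPM against BMDM and against TGEM, and 0 to 2 for BMDM against TGEM. Over strains they ran from 2 to 10, and for the strain difference from 0 to 4. In cultured LPM they ran from 0 to 1 for ATRA, 0 to 2 for TGFB1 and 0 to 2 for the ligand. They ran from 4 to 7 for cultured against sorted microglia and 2 to 6 for cultured microglia against cultured LPM.

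PU.1 peaks near member starts fell from 62 pairs to 27 when the peak had to cover the start and to 37 among the entries of each list above its median score. The counts within 100 kb of member starts also include the lists of cultured LPM. Entries there numbered 1004 for H3K27Ac, 1402 for H3K4me2 and 1861 for PU.1, which became 505, 736 and 916 within 50 kb and 638, 905 and 1125 above the median score.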
